A study of Mus musculus with 16 samples.

Results

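The SLAM family is a group of cell-surface receptors of blood cells, most of which are encoded side by side on chromosome 1 near *Fcgr2b*. The members were all array probes whose transcript accession belongs to *Slamf1*, *Slamf6*, *Slamf7*, *Slamf8*, *Slamf9*, *Cd48*, *Cd84*, *Ly9*, or *Cd244a*, whatever their values. This gave 15 probes for 9 genes, among 56605 probes and 22911 named genes. Kidneys of 16 mice, all 6 months old, were hybridized 1 mouse per array. The 4 groups of 4 mice were wild-type (WT) on C57BL/6, *Fcgr2b*-/- (labelled Fcgr2b-ko) on 129/C57BL/6, *Fcgr2b*-/-.*Sting* gt/gt or double-deficient (Fcgr2b-ko, Sting-ko) on 129/C57BL/6, and *Sting* gt/gt (Sting-ko) on C57BL/6. The labels do not give the *Sting* genotype of the *Fcgr2b*-/- mice, and the study's account of kidney expression names them wt/gt, so these mice may carry 1 gt allele. The *Fcgr2b* allele was made in 129 cells and the SLAM genes are linked to it, so *Fcgr2b* loss, the 129 background, and the SLAM haplotype cannot be told apart in these mice. Whole kidney was used, so fewer cells of a type and less RNA per cell cannot be told apart either.

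SLAM receptors sit on T cells, B cells, NK cells, macrophages, and dendritic cells, where most bind a copy of themselves on a neighboring cell. CD48 and CD244 (2B4) instead bind each other. The cytoplasmic tails of several members recruit the small adaptors SAP (*Sh2d1a*) and EAT-2 (*Sh2d1b1*). SAP passes the signal to Src family kinases, and the SLAM haplotype is a known part of lupus susceptibility in mice. In the RefSeq gene order, *Cd244a*, *Ly9*, *Slamf7*, *Cd48*, *Slamf1*, *Cd84*, and *Slamf6* follow one another, *Cd244a* being 66 entries and *Slamf6* 80 entries beyond *Fcgr2b*. *Slamf9* and *Slamf8* lie farther out, 100 and 109 entries from *Fcgr2b*.

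No SLAM family probe was called in any of the 6 comparisons made. A call needed an adjusted p under 0.05 (limma, Benjamini-Hochberg over 35629 probes) and a change of at least 2-fold. The same rule called 0.0505% of all probes in *Fcgr2b*-/- against WT and 0.0674% in both *Fcgr2b*-deficient groups against both others. It called 0% of probes in each of the other 4 comparisons, in which 645 to 2234 probes (1.81% to 6.27%) had an unadjusted p under 0.05. *Fcgr2b*-/- kidneys had higher mean levels of most members than WT kidneys, by 1.38 to 1.76 on the log2 scale for 6 of 8 genes. However, the SD among the 4 *Fcgr2b*-/- mice was of like size for these genes, from 1.49 (*Slamf9*) to 2.04 (*Slamf6*). Without *Fcgr2b*-/- replicate 1 the change was 0.52 for *Slamf6*, 0.81 for *Slamf9*, 0.90 for *Cd48*, and 1.03 for *Cd84*, and without WT replicate 2 it was also 1.03 for *Cd84*.

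Of the 15 probes, 12 were well above background on at least 4 arrays and were tested, covering 8 genes. *Slamf1*, which encodes SLAM itself, had no tested probe: one of its probes was well above background on 0 arrays and the other on 1. *Cd48*, *Slamf8*, *Slamf9*, and one probe of *Cd244a* were well above background on all 16 arrays, *Cd84* on 15, *Slamf7* on 13, *Ly9* on 10, and *Slamf6* on 5. For *Slamf6* these were 2 *Fcgr2b*-/- arrays and 1 array of each other group. Its probe thus met the limit of 4 arrays only with the *Fcgr2b*-/- arrays counted, and so did the dimmer *Cd244a* probe. Between 28443 and 35566 probes per array were well above background, and no spot was saturated. Signal for *Fcgr2b* was 1.70 ± 0.43 in WT and 0.25 ± 0.31 in *Fcgr2b*-/- kidneys (mean log2 level ± SD, n = 4). It was -0.049 ± 0.39 in double-deficient and 0.78 ± 0.73 in *Sting* gt/gt kidneys, so the 2 *Sting* gt/gt genotypes overlapped. The files do not say whether this probe lies in the deleted part of *Fcgr2b*. *Sting1* signal was -0.23 ± 1.0, 1.20 ± 1.61, 0.097 ± 0.61, and 0.29 ± 0.49 in the same order of groups, and the gt allele is not a deletion, so its signal does not check that label. Every level below is a log2 signal after subtraction of that array's 75th percentile.

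The upstream sequences of 3 members are shown. Those of *Slamf9* and *Slamf8* hold the only matches to the motifs searched among the 8 members with a window in the table, and that of *Slamf7* is given beside them because its values are described further on. Each runs 250 bases up to the RefSeq transcript start, 5′ to 3′. Capitals mark matches, on either strand, to GAGGAA, a core bound by the myeloid factor PU.1, or to the interferon-stimulated response element (ISRE), searched as TTTC, any 2 bases, and TTTC.
Slamf7 promoter, GRCm38.p6 chr1:171649000-171649249 (minus strand): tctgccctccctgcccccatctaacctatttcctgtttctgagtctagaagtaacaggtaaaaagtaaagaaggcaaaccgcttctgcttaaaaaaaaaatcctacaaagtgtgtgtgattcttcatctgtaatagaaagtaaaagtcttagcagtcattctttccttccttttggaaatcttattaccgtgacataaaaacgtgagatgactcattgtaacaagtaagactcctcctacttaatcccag
Slamf9 promoter, GRCm38.p6 chr1:172475110-172475359 (plus strand): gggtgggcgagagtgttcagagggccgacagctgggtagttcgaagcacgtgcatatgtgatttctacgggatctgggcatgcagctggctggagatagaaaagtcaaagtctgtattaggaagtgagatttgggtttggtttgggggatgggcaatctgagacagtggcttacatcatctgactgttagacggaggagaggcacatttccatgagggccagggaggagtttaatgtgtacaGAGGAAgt
Slamf8 promoter, GRCm38.p6 chr1:172590569-172590818 (minus strand): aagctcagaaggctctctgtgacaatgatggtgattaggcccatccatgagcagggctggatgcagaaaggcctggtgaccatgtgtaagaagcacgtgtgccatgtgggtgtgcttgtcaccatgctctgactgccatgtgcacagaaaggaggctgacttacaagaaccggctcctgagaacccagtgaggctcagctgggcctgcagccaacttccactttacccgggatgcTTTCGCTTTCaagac
The GAGGAA core was found in the *Slamf9* window, and in 23.3% of 32851 promoter windows of this length. The ISRE letters were found in the *Slamf8* window, and in 2.98% of all windows. Neither was found in the *Slamf7* window. The windows of *Slamf1*, *Slamf6*, *Cd48*, *Cd84*, and *Cd244a* held neither as well. A match describes letters in the window and is not evidence of a bound site.

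*Slamf8* (BLAME), a receptor of macrophages and dendritic cells, was -1.57, -3.51, -3.29, and -2.67 in WT replicates 1 to 4 and 0.45, -2.45, -2.30, and 0.18 in *Fcgr2b*-/- replicates 1 to 4. It was -2.48, -1.43, -2.26, and -2.91 in double-deficient and -1.70, -2.61, -3.03, and -3.31 in *Sting* gt/gt replicates. *Fcgr2b*-/- replicates 1 and 4 lay above every WT mouse, and replicates 2 and 3 lay within the WT range. On slide 1 (3 mice against 2) the difference was 1.93 and on slide 2 (1 against 2) it was 0.68. The fitted change in *Fcgr2b*-/- against WT was 1.73 (SE 0.65, 95% interval 0.34 to 3.12), with an unadjusted p of 0.0181 and an adjusted p of 1.0 by limma.

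*Ly9* (CD229), a self-binding receptor of T and B cells, was -4.20, -5.24, -6.36, and -4.34 in WT and -1.69, -4.54, -4.65, and -2.22 in *Fcgr2b*-/- kidneys. It was -4.09, -3.65, -4.83, and -4.80 in double-deficient and -3.46, -4.22, -5.33, and -4.58 in *Sting* gt/gt kidneys. Again *Fcgr2b*-/- replicates 1 and 4 were the 2 above every WT mouse. The change was 1.76 (SE 0.67, 95% interval 0.33 to 3.19), with an unadjusted p of 0.0189 and an adjusted p of 1.0 by limma. The *Ly9* probe was not well above background in WT replicates 2 and 3 and *Fcgr2b*-/- replicate 2. It was also not in double-deficient replicate 4 and *Sting* gt/gt replicates 3 and 4. These are not measured levels, and the change and its p rest in part on them.

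*Cd48*, the ligand of CD244 on most leukocytes, was 1.31, -0.58, -0.63, and -0.29 in WT and 3.24, 0.51, -0.11, and 2.15 in *Fcgr2b*-/- kidneys by its brighter probe. It was -0.07, 1.25, -0.22, and -0.49 in double-deficient and 1.31, -0.18, -0.32, and -0.89 in *Sting* gt/gt kidneys. Above 1 lay *Fcgr2b*-/- replicates 1 and 4 and a single mouse in each other genotype, so all groups overlapped. The change in *Fcgr2b*-/- against WT was 1.49 (SE 0.70, 95% interval 0.012 to 2.97) and, by the dimmer probe, 2.03 (SE 0.98).

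*Cd84*, a self-binding receptor of lymphocytes and myeloid cells, was -1.78, -5.23, -3.18, and -3.40 in WT and 0.07, -3.41, -2.63, and -1.07 in *Fcgr2b*-/- kidneys. It was -3.71, -1.50, -2.69, and -3.19 in double-deficient and -2.13, -3.02, -2.81, and -2.25 in *Sting* gt/gt kidneys. Its change in *Fcgr2b*-/- against WT was 1.64 (SE 0.76, 95% interval 0.030 to 3.24), and the other probes gave 1.97 and 2.15. The -5.23 of WT replicate 2 was not well above background. *Slamf6* (Ly108), a receptor of T, B, and NK cells, was well above background in 1 of 4 WT and 2 of 4 *Fcgr2b*-/- kidneys. Its change was 1.40 (SE 0.94, 95% interval -0.61 to 3.40).

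*Slamf9*, a receptor of macrophages and dendritic cells, was 3.39, 0.69, 0.86, and 1.44 in WT and 4.70, 2.07, 1.45, and 3.69 in *Fcgr2b*-/- kidneys. It was 1.51, 3.09, 1.30, and 0.55 in double-deficient and 3.69, 1.22, 1.77, and 1.38 in *Sting* gt/gt kidneys. Its change in *Fcgr2b*-/- against WT was 1.38 (SE 0.80, 95% interval -0.32 to 3.08). *Cd244a*, the receptor for CD48 on NK and some T cells, gave unlike results from its 2 probes. The brighter one differed by 0.26 (SE 0.41) between *Fcgr2b*-/- and WT and the other, well above background on 5 arrays, by 1.70 (SE 0.86).

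*Slamf7* (CRACC) is a self-binding receptor of NK cells, plasma cells, and activated macrophages. Among the tested members, it alone had no higher mean in *Fcgr2b*-/- than in WT kidneys. Its levels were -1.38, -3.96, -3.85, and -2.91 in WT and -1.51, -3.86, -4.95, and -2.0 in *Fcgr2b*-/- kidneys. They were -4.31, -2.61, -4.25, and -5.53 in double-deficient and -1.24, -3.29, -2.85, and -3.42 in *Sting* gt/gt kidneys. The change in *Fcgr2b*-/- against WT was -0.054 (SE 0.81, 95% interval -1.78 to 1.68). Its probe was not well above background in 2 *Fcgr2b*-/- mice and 1 double-deficient mouse.

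**Figure D1:**
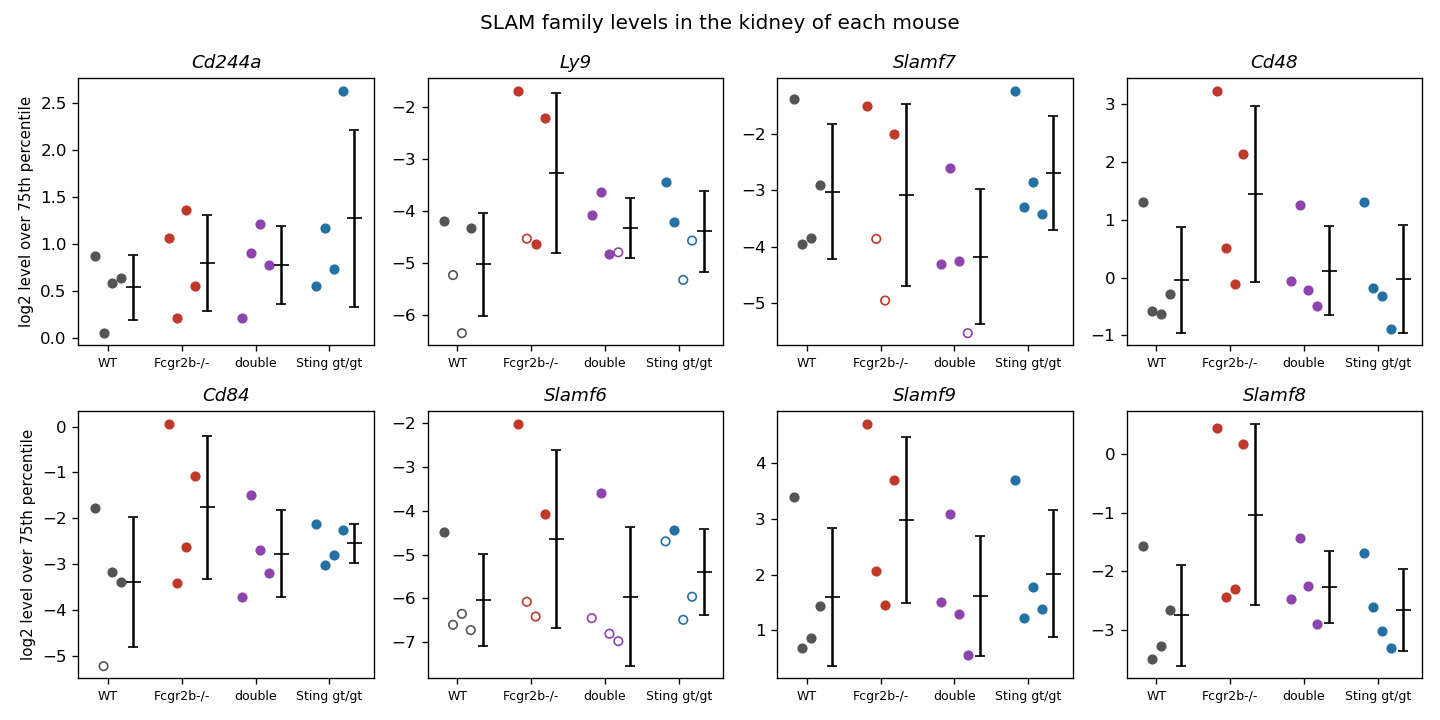
Log2 level over the array's 75th percentile (vertical axis) in each mouse by genotype, for the brightest tested probe of 8 SLAM family genes, with replicates 1 to 4 from left to right. Filled points were well above background, open points were not, and the bar is mean ± SD (n = 4). *Fcgr2b*-/- replicates 1 and 4 were highest in that group for 7 of the 8 genes. The exception was *Cd244a* by the brighter probe shown, while by its dimmer probe replicates 1 and 4 were highest too.

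Over the whole family in *Fcgr2b*-/- against WT, 7 of 8 genes had a positive change, beside 43.4% of all probes. The median over the 8 genes was 1.45, against -0.055 over all probes tested. *Slamf6* is counted here, though its probe was tested only because of the *Fcgr2b*-/- arrays. Its positive change is therefore no support for a higher level. An unadjusted p under 0.05 with a higher level was found for 4 of 8 genes (*Slamf8*, *Ly9*, *Cd84*, and *Cd48*) and 5 of 12 probes, beside 2.64% of all probes. Members share their samples and vary together, so these counts are a description. In double-deficient against *Fcgr2b*-/- kidneys, which differ in *Sting* by their labels, all 8 changes were negative, beside 42.5% of all probes, from -1.36 to -0.021. Their median was -1.17 against 0.055 over all probes. *Slamf6* is counted here too, with its probe tested only because of the *Fcgr2b*-/- arrays. Its negative change is therefore no support for a lower level. None of the 12 probes had an unadjusted p under 0.05 there by limma, beside 1.81% of all probes, and the 95% intervals for all 8 genes included 0. The direction did not hold on both array slides. On slide 1, with 1 double-deficient against 3 *Fcgr2b*-/- mice, the differences were all negative, from -2.40 (*Slamf6*) to -0.39 (*Cd244a*). On slide 2, with 3 against 1, 7 of 8 were positive, from 0.10 (*Slamf8*) to 0.82 (*Slamf7*), and *Cd244a* was -0.40. Without *Fcgr2b*-/- replicate 1, 7 changes lay between -0.79 (*Slamf9*) and -0.40 (*Cd84*), and *Cd244a* was 0.07. Both comparisons use the same 4 *Fcgr2b*-/- mice, so they are not independent of each other.

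*Sting* gt/gt against WT gave 8 positive changes (50.1% of all probes were positive), of 0.026 (*Cd48*) to 0.85 (*Cd84*), with adjusted p of 0.732 to 0.991 by limma. Scaling by the array median shifted the median of all probes in this comparison by -0.24 and turned *Cd48* and *Slamf8* negative. Double-deficient against *Sting* gt/gt gave changes of -1.47 (*Slamf7*) to 0.39 (*Slamf8*), with adjusted p of 0.885 to 0.990. The interaction, which asks whether the change with *Fcgr2b* loss differed with and without *Sting*, ranged from -1.96 (*Slamf6*) to -0.76 (*Cd244a*), all 8 negative beside 48.0% of all probes. Its adjusted p were 0.661 to 0.686 by limma, and no difference was detectable with 4 mice per group. The *Slamf6* probe was tested only because of the *Fcgr2b*-/- arrays, so its negative value is no support for an interaction.

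In both *Fcgr2b*-deficient groups against both others (8 against 8), *Slamf8* changed by 1.06 (SE 0.46, unadjusted p = 0.0361, adjusted p = 1.0 by limma). The other changes were 0.91 (SE 0.47) for *Ly9*, 0.82 (SE 0.49) for *Cd48*, 0.71 (SE 0.53) for *Cd84*, 0.49 (SE 0.56) for *Slamf9*, 0.42 (SE 0.67) for *Slamf6*, -0.12 (SE 0.29) for *Cd244a*, and -0.76 (SE 0.57) for *Slamf7*. Of the 8 genes, 1 had an unadjusted p under 0.05, beside 1.66% of all probes. The methods' Mann-Whitney test, taken unadjusted with a 2-fold change, also picked *Slamf8* alone here, and 0 SLAM probes in the 4 comparisons of single groups. Positive changes were found for 6 of 8 genes and 48.0% of all probes. *Slamf6* is among these genes, though its probe was tested only because of the *Fcgr2b*-/- arrays, so its sign is no support. No member's groups were fully separated, beside 0.059% of probes that lay higher and 0.0112% that lay lower in all 8 deficient mice. Within the 2 array slides, with 4 mice against 4 on each, *Slamf8* differed by 1.27 and 0.85, *Ly9* by 1.15 and 0.67, and *Slamf7* by -0.45 and -1.08.

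**Figure D2:**
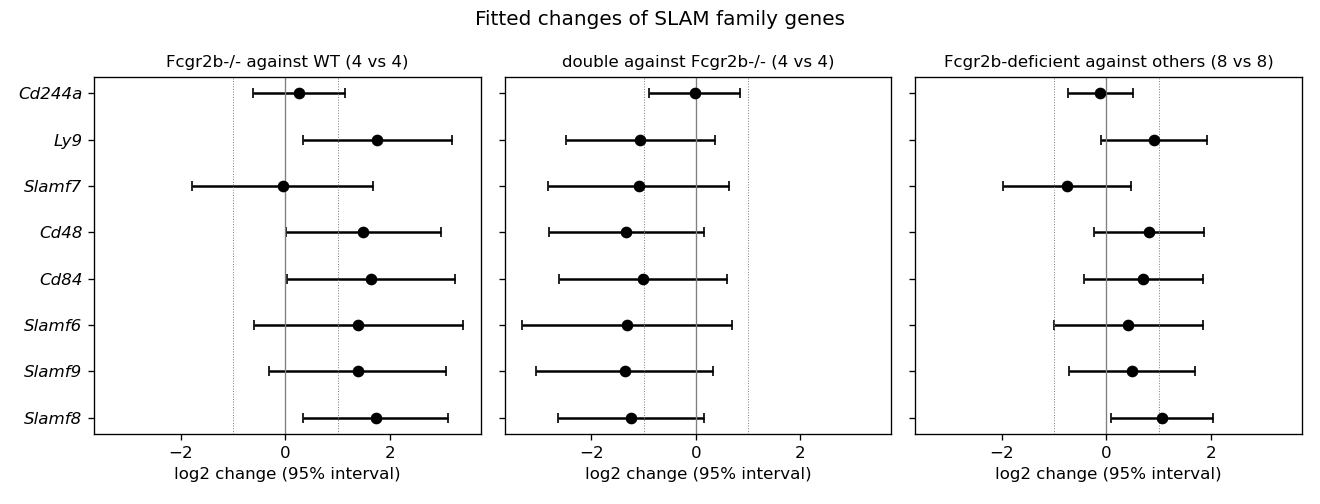
Fitted log2 change (horizontal axis) with its 95% interval for the brightest probe of each gene in 3 comparisons, with dotted lines at a 2-fold change. The intervals are wide, reaching from -1.78 to 3.40 over the genes in *Fcgr2b*-/- against WT, and no gene was called.

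The mice with high SLAM levels were those with high leukocyte markers. The mean log2 level of *Ptprc* (CD45), *Coro1a*, *Laptm5*, *Rac2*, and *Cytip* was 3.27 and 2.53 in *Fcgr2b*-/- replicates 1 and 4, and 0.52 and 0.45 in replicates 2 and 3. It was 1.18 in WT replicate 1 and -0.59 to 0.04 in the other WT mice, 1.17 in double-deficient replicate 2, and 1.5 in *Sting* gt/gt replicate 1. After genotype means were subtracted, 11 of 12 SLAM probes correlated with this mean over the 16 mice, with Pearson's r of 0.85 to 0.98 and Spearman's rho of 0.72 to 0.97. Without *Fcgr2b*-/- replicates 1 and 4, the mice farthest from the median, r was 0.80 to 0.98. The exception was the brighter *Cd244a* probe, with r = 0.022, while the dimmer probe of this gene had r = 0.87. Members also varied with each other, with r of 0.66 to 0.98 over 21 pairs without *Cd244a*, and *Slamf7* and *Slamf9* were the closest pair. These correlations are given as descriptions, since all points share their arrays. The share of all probes that correlate this closely with the leukocyte mean was not counted.

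**Figure D3:**
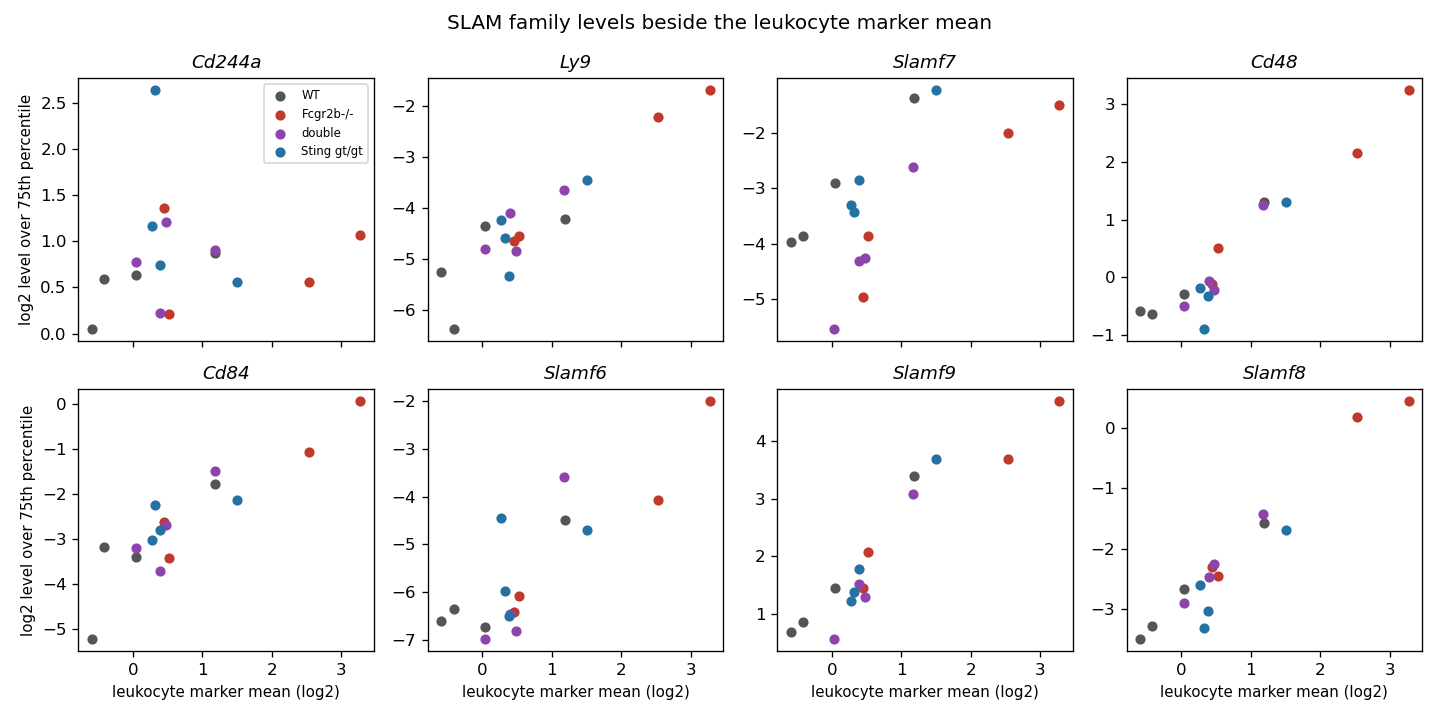
Log2 level of each gene (vertical axis) against the mean log2 level of 5 leukocyte markers (horizontal axis), 1 point per mouse, colored by genotype. Levels climb with the markers for every gene shown but *Cd244a*, which is shown by its brighter probe. In the *Slamf7* panel the *Fcgr2b*-deficient mice within the marker range of the WT and *Sting* gt/gt mice sit below those of like marker level. *Fcgr2b*-/- replicates 1 and 4 lie beyond that range, so no such mouse can be set beside them. The *Slamf7* probe was not well above background in *Fcgr2b*-/- replicates 2 and 3 and double-deficient replicate 4.

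The other marker lists were set beside the members in *Fcgr2b*-/- against WT. All 10 macrophage and dendritic cell markers had positive changes, with a median of 2.21, and 8 had an unadjusted p under 0.05, beside 3.35% of all probes. The leukocyte list had a median of 1.89 with 4 of 5 genes under that p. The medians were 0.36 over 7 T cell, 0.058 over 5 B cell, 0.43 over 4 plasma cell, 0.73 over 6 NK cell, and 1.35 over 3 neutrophil markers. The kidney markers, such as *Umod* and *Nphs1*, had a median of -0.011 over 8 genes, and 0 genes of any of these lists were called. The summed linear level of the macrophage and dendritic cell list was 107 to 143 in WT, 116 to 276 in *Fcgr2b*-/-, 120 to 181 in double-deficient, and 146 to 407 in *Sting* gt/gt kidneys. This sum follows the brightest genes. The mean log2 level of the list, which weighs its genes alike, ranked the groups otherwise. It was 0.78 in WT, 2.55 in *Fcgr2b*-/-, 1.37 in double-deficient, and 1.23 in *Sting* gt/gt kidneys. Of the B cell markers, *Cd79a* was well above background on no array. The part of cell number in the SLAM levels was not tested.

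For each member the 3 genes most like it were found by Pearson's r over the 16 mice after subtracting genotype means. For *Slamf8* they were *Sash3*, *Ctss* (cathepsin S), and *Btk*, with r of 0.98 to 0.99. For *Slamf7* they were *Slamf9*, *Tmem45a*, and *Phf11d*, also at 0.98. *Slamf9* was closest to *Tmem45a*, *Cysltr1*, and *Phf11d* (0.99), *Cd48* to *Gpr65*, *AW112010*, and *AI662270* (0.99), and *Ly9* to *Slc37a2*, *Batf*, and *Spic* (0.94 to 0.98). *Cd84* was closest to *Slfn10-ps*, *Knl1*, and *Aim2* (0.95 to 0.96), *Slamf6* to *H2-Eb2*, *Lyz1*, and *Gimap7* (0.94 to 0.95), and *Cd244a* to *Marchf3*, *Pclaf*, and *Ap5z1* (0.97). The *Cd244a* probe used was 2.63 in *Sting* gt/gt replicate 4 and 0.56 to 1.17 in the other mice of that group. That mouse weighs heavily in these r, and what they are without it was not tested.

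A further look at *Slamf7* was taken after these values had been seen, and it is a description of a pattern chosen for its size. When the leukocyte marker mean was added to the fit, *Slamf7* was lower in both *Fcgr2b*-deficient groups against both others by -1.78 (SE 0.24, 95% interval -2.31 to -1.26, adjusted p = 0.00631 by limma), where it was -0.76 without the covariate. It was the only one of 72 combinations of member probe and comparison called with this covariate, and 0.185% of all probes were called. With the covariate, 6447 probes had an unadjusted p under 0.05, against 590 without it. In the single arms with all mice it was not called, at -2.23 in *Fcgr2b*-/- against WT (adjusted p = 0.0654, 0.0561% of probes called) and -1.34 in double-deficient against *Sting* gt/gt (adjusted p = 0.558 by limma, 0.0393% called). Without *Fcgr2b*-/- replicate 2 it was called in *Fcgr2b*-/- against WT, at -2.79 (SE 0.38, adjusted p = 0.0290 by limma, 0.0281% called). *Fcgr2b*-/- replicates 1 and 4 had leukocyte means above those of every WT and *Sting* gt/gt mouse. For these mice the adjusted changes rest on the fitted line beyond the marker range of the mice they are compared with.

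The result depended on which markers were used. Of 6 marker lists tried as the covariate in this comparison, 2 called *Slamf7* and 4 did not. The macrophage and dendritic cell list gave -2.25 (adjusted p = 0.00607, 0.556% of probes called), and also called it in *Fcgr2b*-/- against WT at -2.81 (adjusted p = 0.0443, 0.0646% called). The NK cell list gave -1.39 (adjusted p = 0.0878), the T cell list -0.93 (adjusted p = 0.809), the B cell list -0.83 (adjusted p = 1.0), and the plasma cell list -0.60 (adjusted p = 1.0), all by limma. Over all lists and comparisons, 3 of 432 fits of member probes were called, all 3 of them *Slamf7*. With normexp background correction the leukocyte covariate gave -0.75 and no call (adjusted p = 0.222). The leukocyte and macrophage markers themselves had higher means in *Fcgr2b*-/- than in WT kidneys, with 0 of them called, and what that adds to the adjusted values was not tested.

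On the direct scale, *Slamf7* level minus the leukocyte mean was -5.56 to -3.79 in the 8 *Fcgr2b*-deficient and -3.75 to -2.57 in the 8 other mice. Of the deficient mice, *Fcgr2b*-/- replicates 2 and 3 and double-deficient replicate 4, at -4.39, -5.40, and -5.56, had a probe not well above background, so these are not measured levels. The fitted changes and the slide differences rest in part on them. The 5 deficient mice with a measured level ranged from -4.78 to -3.79. The groups did not overlap, by a gap smaller than the spread within either, and 0.107% of probes lay lower in this way and 0.0758% lay higher. Within the slides the difference was -1.54 on slide 1 and -1.53 on slide 2, with 4 mice against 4 on each.

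**Figure D4:**
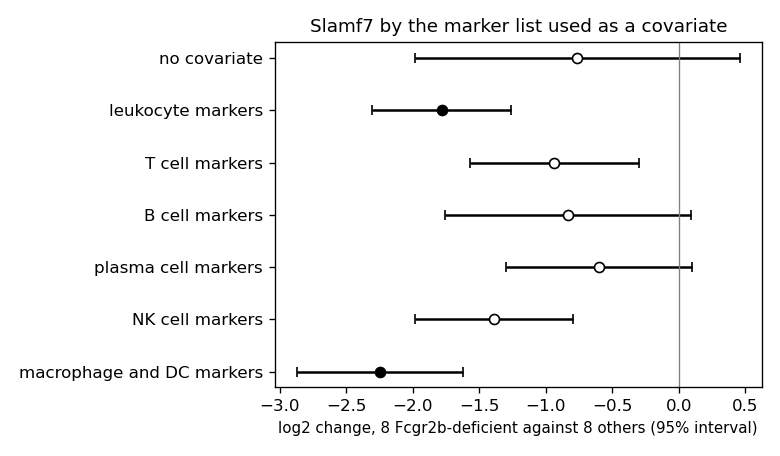
Log2 change of *Slamf7* in 8 *Fcgr2b*-deficient against 8 other mice (horizontal axis, with 95% interval), without a covariate and with each of 6 marker lists as one. Filled points were called and open points were not, and all point estimates lie below 0, from -2.25 to -0.60.

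The adaptors and partners of the SLAM receptors were described in the same way. Of 15 genes, 14 were tested and 0 were called in each of the 6 comparisons. *Sh2d1b2* was well above background on no array. In both *Fcgr2b*-deficient groups against both others, *Ptpn6* (SHP-1), an inhibitory phosphatase, changed by 0.54 (SE 0.18, unadjusted p = 0.00800), *Sh2d1b1* (EAT-2) by 1.68 (SE 0.57, unadjusted p = 0.00938), and *Bcl10* by 0.24 (SE 0.13, unadjusted p = 0.0899), with adjusted p of 1.0 by limma. *Sh2d1a* (SAP) changed by 0.38 (SE 0.68).

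The genes flanking the SLAM genes were listed as 10 on each side of the 7-gene cluster and of *Slamf9* and *Slamf8*, and 20 of 39 were tested. Their median change in both *Fcgr2b*-deficient groups against both others was 0.089, 7 had an unadjusted p under 0.05 (1.66% of all probes), and 2 were called (0.0674% of all probes). *Dusp23*, a small phosphatase, fell by 2.67 (SE 0.40, adjusted p = 0.0128 by limma), ranging from -2.76 to -0.21 in the 8 *Fcgr2b*-deficient mice and 0.055 to 2.29 in the 8 others. *Itln1*, an intestinal lectin (intelectin), was well above background in 4 of 4 *Fcgr2b*-/-, 3 of 4 double-deficient, and 0 of 8 other mice (adjusted p = 0.0286 by limma). Its probe thus met the limit of 4 arrays only with the *Fcgr2b*-deficient arrays counted, so its call is no support for a higher level. The p also rests on signals not well above background in the 8 other mice. With each WT array set no lower than its dimmest signal well above background, *Itln1* was 3.68-fold higher in *Fcgr2b*-/- kidneys. No SLAM gene between these neighbors was called.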

How the data were processed

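Kidney RNA of 16 mice (100 ng each) was hybridized to one-color arrays, 1 mouse per array. The authors deposited scanner files with the intensity of each spot, background-subtracted by Agilent Feature Extraction 11.0, and a second table giving log2 values per array, whose scaling is not given in the sources used here. From the scanner files, spots of a probe were averaged, without control and outlier spots, and log2 intensity was set relative to each array's 75th percentile, in Python 3.11.15 with numpy 2.4.6, pandas 2.3.3, scipy 1.17.1, and matplotlib 3.10.9. Testing used limma 3.58.1 in R 4.3.3 (lmFit, eBayes), on probes well above background in 4 or more arrays. One model held the 4 genotype means and all 16 arrays. The number of arrays limits the precision, and p-values measure the spread between these mice.

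Probes were named by accession through a RefSeq table of GRCm38.p6, which named 58.3% of probes. The file headers give another build, so no position was taken from it. A gene is given by its brightest probe. Named genes are the 9 members, called genes of each list or else the 3 with the smallest unadjusted p in the 8 against 8 comparison, and the 3 genes most like each member. Markers named as examples and *Sh2d1a* fall outside this rule. The members, lists, and tests were chosen with earlier results of these data known. Leukocyte and other marker covariates were added after the values were seen. Alternatives were background correction, scaling, filter, test, slide and replicate block, and each array left out. The test was checked on simulated data, with 200 probes changed by 1, 2, or 3 on the log2 scale in both *Fcgr2b*-deficient groups. In *Fcgr2b*-/- against WT it called 0%, 54.5%, and 84% of them, with 0, 3, and 5 false calls. In the 8 against 8 comparison it called 22%, 78.5%, and 92.5%, with 3, 7, and 6 false calls. Many changes of the size seen for SLAM genes would thus be missed.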

Additional observations from a re-analysis of the deposited data

Results flagged for a closer look

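Among 60 sets of 4 mice (15 probes in 4 genotypes), 5 had one mouse far from the other 3, and chance alone sets apart about 1 in 20 sets. *Slamf6* in double-deficient replicate 2 (-3.59, next mouse -6.45) and in WT replicate 1 (-4.48, next -6.35) were the high ones. A dim *Cd84* probe was high in double-deficient replicate 2 (-2.91, next -4.93). An untested *Slamf1* probe, not well above background there, was -5.63 in *Fcgr2b*-/- replicate 2 against -6.39 for the next. The dim *Cd244a* probe was low in *Sting* gt/gt replicate 2 (-7.44, next -5.24).

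The probes left out of the tests carried signal in a few mice. The second *Slamf6* probe was well above background in *Fcgr2b*-/- replicates 1 and 4 (-2.40 and -3.91) and double-deficient replicate 2 (-4.26), and in 0 WT mice, of which the highest was -6.40. One *Slamf1* probe was well above background in *Fcgr2b*-/- replicate 1 alone (-4.19, highest WT mouse -5.16).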

How the results depend on the processing

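Other background corrections, scalings, filters, and blocks, and each array left out, called no SLAM probe in any comparison. The methods' Mann-Whitney test, unadjusted with 2-fold, called 1 (*Slamf8*) in the 8 against 8 comparison. The counts over the whole array moved more. In *Fcgr2b*-/- against WT the 18 probes called became 5 with normexp, 7 with the authors' table, 0 for probes above background on all arrays, 0 with the compared groups alone, and 144 and 0 by Mann-Whitney without and with adjustment, and leaving out each array gave 0 to 37 (0 without WT replicate 2, 3, or 4 or *Fcgr2b*-/- replicate 4, 3 without *Fcgr2b*-/- replicate 1, 5 without *Sting* gt/gt replicate 2 or any double-deficient mouse, 37 without *Fcgr2b*-/- replicate 2). In the 8 against 8 comparison 24 became 13 with normexp, 6 for probes above background on all arrays, 211 and 0 by Mann-Whitney, and 66 with the leukocyte covariate. Elsewhere Mann-Whitney without adjustment gave 41, 127, and 171, the compared groups alone 2, and the leukocyte covariate 14 in double-deficient against *Sting* gt/gt, where leaving out each array gave 0 to 1.

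The leukocyte covariate, chosen after seeing the data, called 1 SLAM probe in the 8 against 8 comparison. The signs that turned were in *Fcgr2b*-/- against WT *Slamf6* -0.90, *Slamf8* -0.066, *Slamf9* -0.77, *Cd48* -0.40, *Cd84* -0.22, in double-deficient against *Fcgr2b*-/- *Slamf6* 0.33, *Slamf7* 0.46, *Slamf8* 0.046, *Slamf9* 0.17, *Cd48* 0.025, *Cd84* 0.32, *Ly9* 0.13, in *Sting* gt/gt against WT *Slamf6* -0.15, *Slamf7* -0.43, *Slamf8* -0.52, *Slamf9* -0.32, *Cd48* -0.63. They were also in the 8 against 8 comparison *Slamf6* -0.66, *Slamf9* -0.52, *Cd48* -0.071, *Cd84* -0.16, in the interaction *Slamf6* 0.48, *Slamf7* 0.89, *Slamf8* 0.57, *Slamf9* 0.50, *Cd48* 0.65, *Cd84* 0.12, *Ly9* 0.075. For *Slamf7* beside the leukocyte markers, the call was lost with T cell (-0.93), B cell (-0.83), plasma cell (-0.60), and NK cell markers (-1.39) and with normexp (-0.75). It was kept with each array left out (-2.06 to -1.62, adjusted p 0.00153 to 0.0370 by limma) and with quantile normalization, median scaling, the authors' table, and the slide or replicate block. The cause of these losses was not tested.

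Signs of values that were not called also turned under scaling and background correction. *Slamf7* in *Fcgr2b*-/- against WT was 0.026 with normexp, and *Ly9* in double-deficient against *Sting* gt/gt was -0.14. In *Sting* gt/gt against WT, *Slamf8* was -0.15, -0.14, and -0.14 and *Cd48* was -0.038, -0.22, and -0.033 with quantile normalization, median scaling, and the authors' table, and *Cd48* was -0.0044 by the median of its probes. *Cd244a* was 0.018 in double-deficient against *Fcgr2b*-/- with median scaling, and 0.38 in the 8 against 8 comparison by the median of its probes. With each array left out, values with a turned sign ranged in *Fcgr2b*-/- against WT *Slamf7* -0.58 to 0.57, in double-deficient against *Fcgr2b*-/- *Cd244a* -0.22 to 0.17, in *Sting* gt/gt against WT *Cd48* -0.42 to 0.48, *Slamf7* -0.16 to 0.87, *Slamf8* -0.22 to 0.50, *Slamf9* -0.14 to 1.02, in double-deficient against *Sting* gt/gt *Cd48* -0.24 to 0.58, *Cd84* -0.65 to 0.092, *Ly9* -0.26 to 0.37, *Slamf9* -0.89 to 0.16, in the 8 against 8 comparison *Cd244a* -0.24 to 0.11, *Slamf6* -0.020 to 0.72.

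Replicate numbers did not pair the mice. Correlations of same-numbered mice ranged from -0.60 to 0.69 with 11 of 24 above 0.1, 5 of 16 mice were closest to one of their own number, and the replicate block called 0 SLAM probes in each comparison. With 4 mice per group the 95% intervals were 1.74 to 4.01 wide on the log2 scale, so most could not tell a 2-fold change from none, and dim probes such as *Slamf6* were measured in few mice.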
